A study of Mus musculus with 2 samples.

Results

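A set of 10 genes, most of them known from neurons and glia, Ralyl, Zfp804b, Cacna2d1, Klf12, Gulp1, Cntn5, Pcdh7, Rbfox1, Edil3 and Megf10, was followed in the tumor cells of 2 mouse pancreatic tumors. The members are 10 of the 32285 genes in the files, and they were selected on their UMI counts in these same libraries, so their levels and differences are given as a description. Tumor cells were taken by a rule of at least 10000 UMIs (unique molecular identifiers, the counted RNA molecules), at least 10 UMIs of the keratins Krt8 and Krt18 together and at most 10 UMIs of the leukocyte gene Ptprc. The rule took 1073 of 11713 cells of the KPC-shV-labelled library and 1197 of 12447 cells of the KPC-shZEB1-labelled library. All remaining cells are called other cells.

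KPC cells are pancreatic cancer cells from a genetically engineered mouse model with a pancreatic Cre driver (Pdx-1-Cre), and both groups share this background. The cells carried a short hairpin RNA, a control one in KPC-shV and one that targets Zeb1 in KPC-shZEB1, were put into the pancreas of C57BL/6J mice with an intact immune system, and 1 tumor per group was dissociated and sequenced with a 10x Chromium 3′ kit. The study describes gemcitabine treatment of these mice, about which the labels of the samples are silent. Because each group is a single library, mouse, tumor, library and hairpin cannot be told apart, no test was possible, and a range in parentheses is a 95% interval that covers counting error alone.

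The members have different tasks. Ralyl and Rbfox1 bind RNA, and Rbfox1 controls splicing in neurons and muscle. Klf12 is a zinc-finger transcription factor and Zfp804b a zinc-finger protein of little known function. Cacna2d1 encodes the α2δ-1 subunit that accompanies voltage-gated calcium channels and binds gabapentin. Cntn5, a contactin, and Pcdh7, a protocadherin, are cell adhesion proteins of the nervous system. Edil3 is a secreted protein that binds integrins and phosphatidylserine, Megf10 is a receptor with which glia take up dying cells and synapses, and Gulp1 is an adaptor of the same engulfment pathway.

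The members are long genes. Their spans in the GENCODE annotation of GRCm38, the build of the files, run from 164 kb for Megf10 to 1526 kb for Rbfox1 with a median of 471 kb, while the median of the genes tested was 28.4 kb. Cntn5 spans 1244 kb on chromosome 9 (9660891 to 10904775, minus strand) and Ralyl 711 kb on chromosome 3 (13471655 to 14182287, plus strand). Zfp804b (6769010 to 7344756, minus strand) and Cacna2d1 (15934691 to 16374511, plus strand) lie on chromosome 5, as does Pcdh7. Each member was longer than at least 92.1% of the tested genes. Whether the count of a gene included reads from introns was not stated, and in a long gene such reads can make up much of the count.

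RefSeq (GRCm38.p6) gave promoter windows of 300 bases, 250 before and 50 after the start, for 7 of the 10 members. The windows of 4 members found together in the same cells below, and of Cntn5, found apart from them, are printed to show what their starts share and where they differ. Capitals mark the E-box CAGGTG or, read on the other strand, CACCTG, the letters that ZEB1 is known to bind. They lie at chr5:7344329-7344628 on the minus strand for Zfp804b, chr5:15934441-15934740 on the plus strand for Cacna2d1, chr1:44551421-44551720 on the plus strand for Gulp1, chr14:100149747-100150046 on the minus strand for Klf12, where the RefSeq start lies inside the GENCODE gene, and chr9:10904677-10904976 on the minus strand for Cntn5.
Zfp804b: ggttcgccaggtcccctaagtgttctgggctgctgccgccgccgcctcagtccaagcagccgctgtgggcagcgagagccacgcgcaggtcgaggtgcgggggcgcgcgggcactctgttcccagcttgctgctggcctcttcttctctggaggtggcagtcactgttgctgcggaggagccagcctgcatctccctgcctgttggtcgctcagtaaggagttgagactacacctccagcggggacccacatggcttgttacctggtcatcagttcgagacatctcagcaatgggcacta
Cacna2d1: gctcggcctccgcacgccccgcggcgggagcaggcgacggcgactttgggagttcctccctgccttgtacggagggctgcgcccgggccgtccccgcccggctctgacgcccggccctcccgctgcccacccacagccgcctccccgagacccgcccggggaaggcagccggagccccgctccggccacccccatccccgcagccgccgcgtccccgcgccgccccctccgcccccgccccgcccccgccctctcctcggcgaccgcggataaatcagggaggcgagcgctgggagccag
Gulp1: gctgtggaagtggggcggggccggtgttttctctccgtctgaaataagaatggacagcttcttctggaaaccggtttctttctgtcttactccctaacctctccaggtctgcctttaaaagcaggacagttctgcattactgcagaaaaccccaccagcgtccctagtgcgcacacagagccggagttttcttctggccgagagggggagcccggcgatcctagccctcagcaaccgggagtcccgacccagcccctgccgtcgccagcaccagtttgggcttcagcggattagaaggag
Klf12: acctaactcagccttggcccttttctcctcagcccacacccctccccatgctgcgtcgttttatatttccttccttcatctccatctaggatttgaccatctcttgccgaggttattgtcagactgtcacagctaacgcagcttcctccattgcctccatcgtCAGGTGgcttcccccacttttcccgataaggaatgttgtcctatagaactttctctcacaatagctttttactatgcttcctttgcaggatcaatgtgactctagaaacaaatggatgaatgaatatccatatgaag
Cntn5: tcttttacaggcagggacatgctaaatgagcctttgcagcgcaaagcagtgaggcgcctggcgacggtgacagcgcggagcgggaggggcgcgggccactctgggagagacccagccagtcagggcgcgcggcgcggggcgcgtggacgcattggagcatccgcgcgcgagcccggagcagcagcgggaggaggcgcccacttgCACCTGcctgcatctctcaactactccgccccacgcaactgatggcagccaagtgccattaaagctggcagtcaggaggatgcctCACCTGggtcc
Klf12 held the letters in 1 place and this Cntn5 window in 2, and the windows of Zfp804b, Cacna2d1 and Gulp1 in none. The window of Pcdh7 and another of Cntn5 held them in 1 place each and both windows of Rbfox1 in none, so that 4 of the 9 windows of these members did. The 2 windows of Cntn5 overlap, and the 1 place of the unprinted window is also marked in the printed one. The members with the letters were therefore Klf12, Cntn5 and Pcdh7 alone. Of all 32851 promoter windows in the table, 20.2% held them, and a difference of the members from this share was not tested.

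Zeb1, the hairpin target, was read first. It stood at 170 CPM (counts per 1000000 UMIs of the summed cells) in tumor cells of the KPC-shV-labelled library (166–174) and at 200 CPM (196–205) in those labelled KPC-shZEB1, so its level went against the label, and every direction below is between libraries as labelled. The libraries held 130941086 and 143461224 UMIs over 12594 and 13271 barcodes, of which 46 barcodes were shared, and the median tumor cell held 31360 and 29593 UMIs. Clustering of all cells, with the members kept out of the clustering, put 2039 of the 2270 cells of the rule into clusters that carried tumor markers. Krt8 and Krt18 are among these markers, so this is not an independent check of the rule. The other 231 lay in clusters that carried markers of other cells, among them 139 fibroblast-like, 52 monocyte-macrophage-like and 22 endothelial-like cells. In the other direction, 564 and 458 cells below the limits of the rule lay in tumor-like clusters and so count among the other cells.

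The first 5 members named above were higher in the tumor cells labelled KPC-shZEB1. Ralyl stood at 2.43 CPM (1.94–3.01) against 106 CPM (103–109), a ratio of 43.5, which was the second highest of 9460 genes with a mean of at least 10 CPM. Zfp804b stood at 27.5 CPM (25.8–29.3) and 267 CPM (262–272). Cacna2d1 stood at 33.6 CPM (31.7–35.6) and 160 CPM (156–164). Klf12 stood at 12.3 and 59.2 CPM and Gulp1 at 12.5 and 54.9 CPM, ratios of 4.82 and 4.41. The intervals of the libraries did not overlap for any of these 5, but they did not for Edil3 either, at a ratio of 0.840, or for Zeb1. Such intervals cover counting error alone, and the share of all genes whose intervals lay apart was not computed, so nothing is read from this.

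Cntn5 went the other way. Its 420 CPM (413–427) in the KPC-shV-labelled library and 98.2 CPM (95.1–101) in the KPC-shZEB1-labelled library gave a ratio of 0.234, the lowest of the 9460 genes. The remaining 4 members lay within 2-fold. Pcdh7 stood at 202 and 199 CPM, Rbfox1 at 110 and 72.9 CPM, Edil3 at 95.8 and 80.5 CPM, and Megf10 at 57.9 and 41.7 CPM in the same order. In all, 5 of 10 members were at least 2-fold higher and 1 at least 2-fold lower, where 2.08% of all 9460 genes were at least 2-fold higher and 0.233% at least 2-fold lower, and since the members were chosen on this contrast nothing is read from these counts. Of the members past the limit, Gulp1 at 4.41 and Cntn5 at 0.234 lay nearest to it on either side, and Rbfox1 at 0.660 was the nearest within it.

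**Figure D1:**
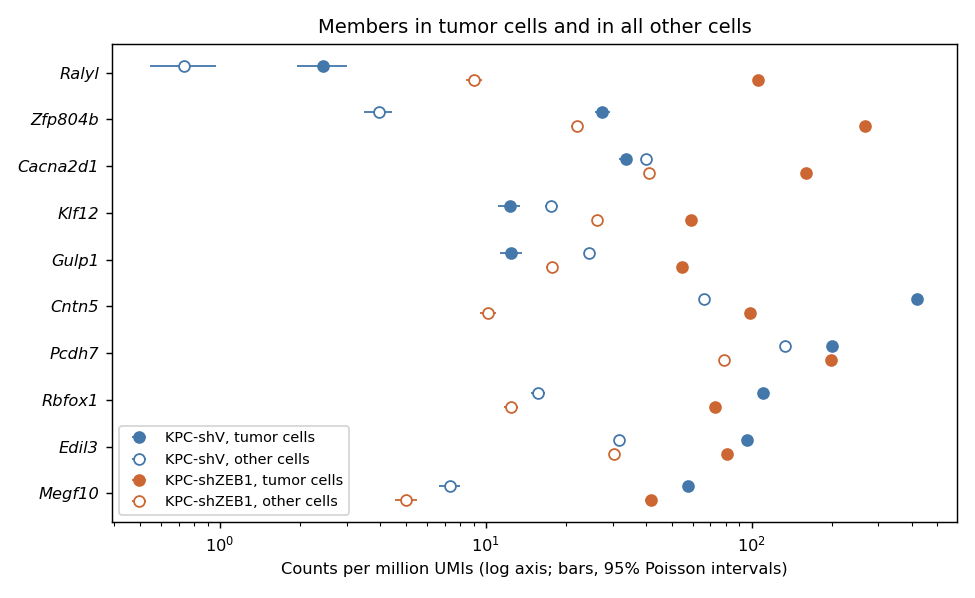
Level of each member in CPM on a log axis, in tumor cells (filled) and all other cells (open) of each library, with 95% Poisson intervals. Ralyl runs from 2.43 to 106 CPM between the tumor cells of the libraries, Cntn5 from 420 down to 98.2 CPM, and Pcdh7 lies at 202 and 199 CPM.

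Other cells differed between the libraries in the direction of the tumor cells for Ralyl, Zfp804b, Klf12, Cntn5, Rbfox1 and Megf10, and not for every member. Ralyl stood there at 0.732 and 9.03 CPM, Zfp804b at 3.95 and 22.0 CPM, Klf12 at 17.6 and 26.3 CPM, and Cntn5 at 66.1 and 10.2 CPM. Rbfox1 stood there at 15.7 and 12.5 CPM and Megf10 at 7.31 and 5.01 CPM. Pcdh7, nearly equal in tumor cells, stood at 133 and 78.8 CPM in other cells. Edil3 had 31.7 and 30.5 CPM there, and the interval of its ratio included 1. Gulp1 went the other way there, with 24.5 and 17.8 CPM and a ratio of 0.725 (0.677–0.778). Cacna2d1 had 40.0 and 41.1 CPM in other cells, so its difference was seen in tumor cells alone of these 2 sets.

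Against the other cells of the same library, all 10 members were at least 2-fold higher in the tumor cells labelled KPC-shZEB1, where 18.2% of all tested genes were. Among cells labelled KPC-shV, 5 of the 9 members with enough counts were (Zfp804b, Cntn5, Rbfox1, Edil3 and Megf10), where 23.3% of tested genes were. Rbfox1 was 7.05 and 5.86 times its level in other cells, Megf10 7.92 and 8.33 times, and Cntn5 6.35 and 9.63 times, with the KPC-shV-labelled library first. Cacna2d1, Klf12 and Gulp1 were lower in tumor cells than in other cells of the KPC-shV-labelled library, with ratios of 0.840, 0.696 and 0.508. They were higher in the KPC-shZEB1-labelled library, with ratios of 3.89, 2.26 and 3.08. The 2-fold lead of some members in that library rested on cluster 7 of the tumor cells, described below. Without it, Ralyl stood at 9.30 CPM against 9.03 CPM in other cells, and Zfp804b at 40.3 against 22.0 CPM. Cacna2d1 stood at 55.3 against 41.1 CPM, Gulp1 at 19.99 against 17.8 CPM and Pcdh7 at 99.3 against 78.8 CPM, all under 2-fold. Klf12 was lower, at 18.5 against 26.3 CPM. Cntn5, Rbfox1, Edil3 and Megf10 stayed at least 2-fold higher. Cluster 7 was taken out of the tumor cells alone. The other cells still held the tumor-like cells below the limits of the rule, so the 2 sides were not treated alike.

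The share of cells with a UMI depends on depth, so each cell was also thinned to 1000 UMIs. Ralyl was then detected in 0.186% (0.0226–0.672) of tumor cells labelled KPC-shV and in 5.85% (4.59–7.33) of those labelled KPC-shZEB1. Granulocyte-like cells gave 0.0432% and 0.950%. Zfp804b was detected in 1.40% and 13.5% of tumor cells beside 0.345% and 2.13% of granulocyte-like cells. Cntn5 was detected in 16.1% and 5.43% of tumor cells beside 2.09% and 0.765% of granulocyte-like cells. The granulocyte-like share therefore moved between the libraries in the direction of the tumor cells for each of these 3 genes, and whether it is background was not tested. Unthinned, Ralyl had a UMI in 3.17% and 29.1% of tumor cells and in 0.0575% and 2.55% of granulocyte-like cells, whose median depths were 3155 and 2910 UMIs. Tumor cells were deeper, with medians of 31360 and 29593 UMIs, so a CPM equal to that of granulocyte-like cells does not place tumor cells at background.

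A minority of tumor cells carried most of the counts of each member. The 43 tumor cells richest in Ralyl, of 1197 labelled KPC-shZEB1, held at least 50% of its 3979 UMIs, with a maximum of 132 UMIs in 1 cell. Only 34 of the 1073 tumor cells labelled KPC-shV held any of their 85 Ralyl UMIs, and 5 cells held 56.5% of these. Zfp804b had 10041 UMIs in tumor cells labelled KPC-shZEB1, and its 960 UMIs in those labelled KPC-shV lay to 60.4% in 5 cells, so that the ratio of 9.71 became 22.5 without the 5 cells of most Zfp804b UMIs in each library. At least 50% of the 14665 Cntn5 UMIs of the KPC-shV-labelled library lay in 44 tumor cells, the highest with 453. Megf10 was spread most evenly, with 86 tumor cells needed for 50% of its UMIs in each library and a maximum of 28.

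To ask which tumor cells these were, the 2270 tumor cells of both libraries were clustered with the members kept out, which gave 11 clusters. Cluster 7 held 5 cells labelled KPC-shV (0.466% of its tumor cells) and 201 labelled KPC-shZEB1 (16.8%), and its leading genes were Ralyl, Zfp804b, the synaptic adhesion gene Cadm2, the transcription cofactor Eya1 and the kinase gene Pak3. Because it comes almost wholly from 1 library, a subtype and a property of that library cannot be told apart. Its 206 cells had a median of 30080 UMIs and a median mitochondrial share of 2.45%, and none had a doublet score above 0.2. They held Krt8 at 977 CPM and Ptprc at 77.2 CPM, but the rule selected on both genes. Tumor markers outside the rule were lower there than in the other tumor cells labelled KPC-shZEB1. Epcam stood at 33.6 and 423 CPM, Cdh1 at 29.8 and 306 CPM, and Krt19 at 196 and 643 CPM. Sox9 was closest, at 119 and 139 CPM.

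The cells of cluster 7 labelled KPC-shZEB1 carried Zfp804b at 1325 CPM, Ralyl at 556 CPM, Cacna2d1 at 647 CPM, Klf12 at 249 CPM and Gulp1 at 218 CPM. They held 92.8% of all Ralyl UMIs of the tumor cells in that library, 87.6% of Zfp804b, 71.5% of Cacna2d1, 74.2% of Klf12 and 70.01% of Gulp1. Pcdh7 at 662 CPM and Rbfox1 at 195 CPM were also high there, whereas Cntn5 was at 9.19 CPM, beside 8.44 CPM in the shallower granulocyte-like cells. The 5 cells labelled KPC-shV in this cluster had Cacna2d1 at 890 CPM and Pcdh7 at 1001 CPM. Their 29 Ralyl UMIs, 190 CPM (127–273), all came from 1 cell.

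Without cluster 7 the difference between the libraries shrank for the first 5 members. Ralyl had a ratio of 5.77 (4.32–7.83), with 1.61 and 9.30 CPM. The shallower granulocyte-like cells of the KPC-shZEB1-labelled library stood at 8.29 CPM, and whether the 9.30 CPM is background was not tested. Zfp804b had 25.8 and 40.3 CPM and a ratio of 1.56 (1.43–1.70), Cacna2d1 a ratio of 1.85, Klf12 of 1.53 and Gulp1 of 1.67, all under 2-fold. Pcdh7 moved from a ratio of 0.985 to 0.501 (0.480–0.523) and Rbfox1 to 0.427, while Cntn5 stayed at 0.278. With only those cells of the rule that fell in tumor-like clusters, the ratios were larger instead, 7.78 for Cacna2d1, 7.44 for Klf12 and 7.97 for Gulp1, of whose UMIs in tumor cells labelled KPC-shV the fibroblast-like cluster 8 held 39.6%, 20.5% and 41.4%. Single clusters outside cluster 7 differed between the libraries too. Ralyl had ratios of 3.38 to 11.2 inside clusters 1 to 6. For Zfp804b they were 8.85, 8.58, 12.9 and 5.50 in clusters 1, 2, 3 and 5, where it stood at 13.3 to 17.8 CPM in cells labelled KPC-shZEB1. In clusters 4 and 6 Zfp804b went the other way, at 0.781 (0.588–1.03) and 0.540 (0.486–0.601).

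**Figure D2:**
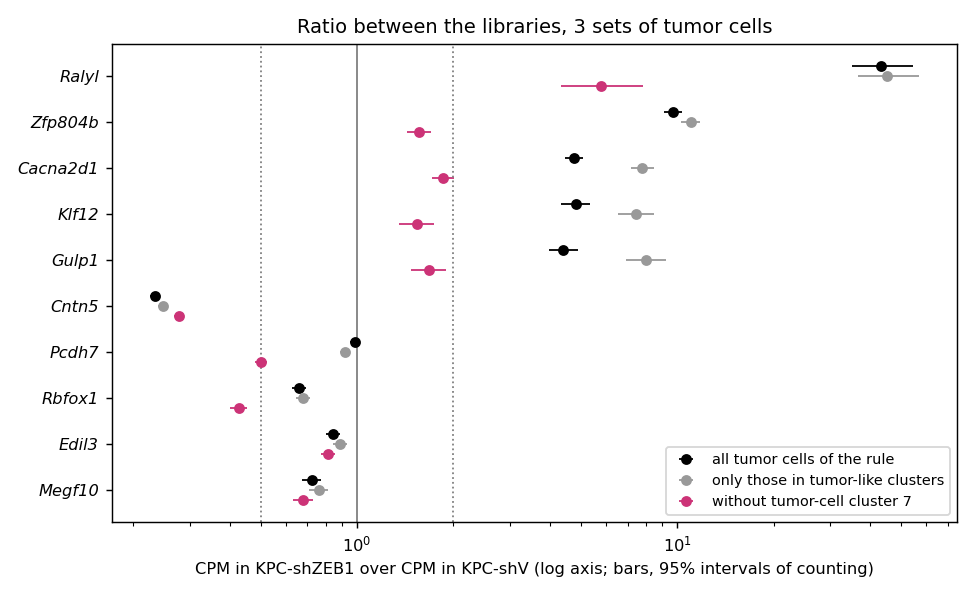
Ratio of each member's CPM between the libraries, KPC-shZEB1 over KPC-shV, on a log axis with 95% counting intervals, for all tumor cells of the rule, for those in tumor-like clusters, and without cluster 7. Removing cluster 7 brings 4 of the 5 higher members under 2-fold and leaves Cntn5 at 0.278.

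Cluster 6, present in both libraries with 55 and 154 cells, shared part of this set at lower levels than cluster 7. Its leading genes Muc3, Prap1, Lypd8, Alpi and Muc13 are known from intestinal epithelium, and its Epcam level was 1375 CPM against 33.0 CPM in cluster 7. Zfp804b stood there at 323 CPM (298–349) in cells labelled KPC-shV and at 174 CPM (162–187) in cells labelled KPC-shZEB1. A Zfp804b UMI was found in 15 of the 55 cells (27.3%) and in 74 of the 154 cells (48.1%), so the share of cells went the other way. Positive cells after thinning, as defined below, were 21.8% and 18.2%. Cacna2d1 had 123 and 131 CPM, Klf12 49.4 and 51.7 CPM, and Gulp1 44.1 and 35.1 CPM, so these 4 differed between the libraries by less than 2-fold within the cluster, and for Cacna2d1, Klf12 and Gulp1 the interval of the ratio included 1. Ralyl was at 3.15 and 20.7 CPM (16.8–25.3 for the latter), above the 8.29 CPM (6.82–9.99) of granulocyte-like cells of the KPC-shZEB1-labelled library. In the KPC-shV-labelled library this cluster held 64.0% of all Zfp804b UMIs of tumor cells.

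Clusters 1 and 2 carried Cntn5. In cluster 1, led by Spink4 and Ugt2b5, Cntn5 stood at 794 CPM in 193 cells labelled KPC-shV and 323 CPM in 200 cells labelled KPC-shZEB1. In cluster 2, led by Steap4 and Prg4, it stood at 877 and 129 CPM in 274 and 103 cells. The lower Cntn5 count was thus seen inside both clusters, with ratios of 0.407 (0.385–0.430) and 0.147 (0.133–0.162), and in each of clusters 3 to 6 too, with ratios of 0.339 to 0.541.

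Cluster 2 was also where Edil3, Rbfox1 and Megf10 were highest among the clusters with at least 100 cells in each library. Edil3 was at 284 and 433 CPM, Rbfox1 at 266 and 260 CPM, and Megf10 at 144 and 124 CPM. Rbfox1 did not differ there beyond its counting interval, with a ratio of 0.978 (0.904–1.06), and Edil3 was higher in the KPC-shZEB1-labelled library at 1.53 (1.43–1.63), although over all tumor cells Edil3 was lower at 0.840. The cluster made up 25.5% of tumor cells labelled KPC-shV and 8.60% of those labelled KPC-shZEB1.

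Pcdh7 had nearly equal totals but not equal cells. Its level inside cluster 2 was 355 CPM in the KPC-shV-labelled library and 62.4 CPM in the other, a ratio of 0.176. Inside cluster 4 it was 307 and 46.6 CPM and inside cluster 5 117 and 36.5 CPM. Of the Pcdh7 UMIs of tumor cells labelled KPC-shZEB1, 58.8% came from cluster 7 and 25.2% from the fibroblast-like cluster 8, where its level was 569 CPM. Rbfox1 likewise was lower inside cluster 4, at 121 and 19.1 CPM.

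**Figure D3:**
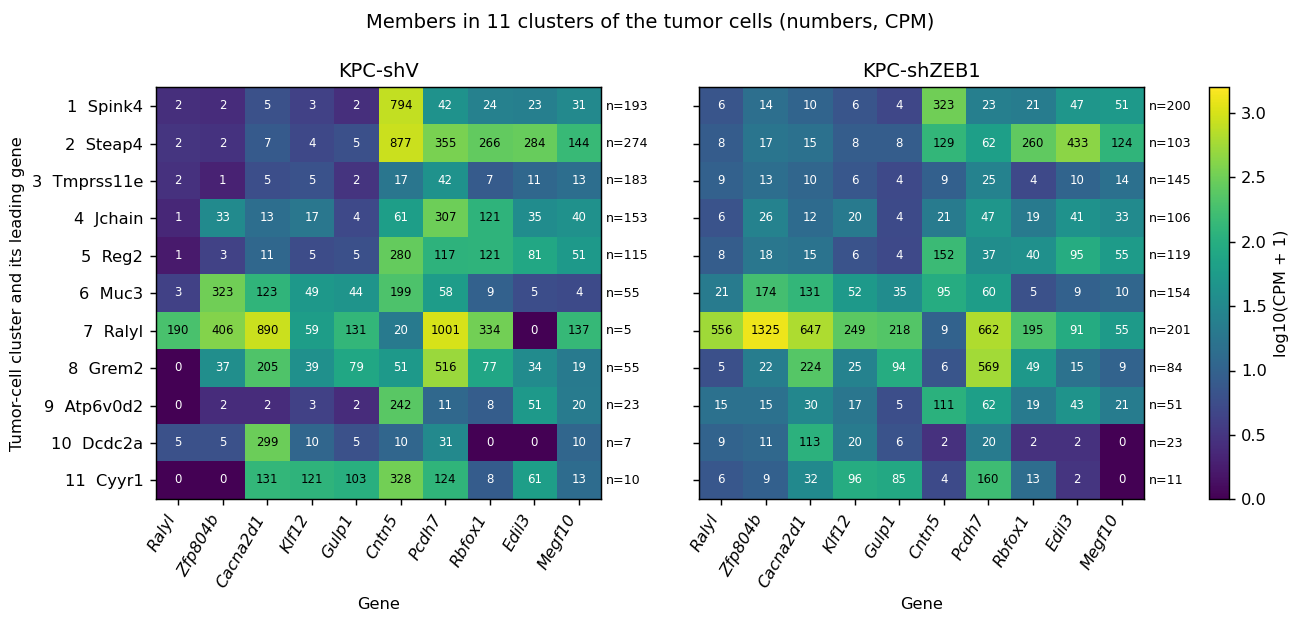
CPM of each member (numbers) in the 11 clusters of tumor cells of each library, colored by log10(CPM + 1), with the number of cells at the right of each row. Cluster 7 holds Ralyl at 556 CPM and Zfp804b at 1325 CPM in the KPC-shZEB1-labelled library and has 5 cells in the other, and Cntn5 is high in clusters 1 and 2.

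Co-detection was counted after thinning each tumor cell to 10000 UMIs, calling a cell positive for a member at 3 or more UMIs. Ralyl-positive cells numbered 2 in the KPC-shV-labelled library and 124 (10.4%) in the KPC-shZEB1-labelled library. Of these 124, 117 (94.4%, 88.7–97.7) were also positive for Zfp804b, against 8.39% of the cells not positive for Ralyl. The expected number under independence was 21.4. Pcdh7 was positive in 84.7% of them, Cacna2d1 in 76.6%, Klf12 in 59.7% and Gulp1 in 41.1%, while none was positive for Cntn5, where 9.94 were expected.

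All 10 pairs among Ralyl, Zfp804b, Cacna2d1, Klf12 and Gulp1 were found together more often than under independence in the KPC-shZEB1-labelled library, by 4.19 to 6.68 times. In that library 30 tumor cells (2.51%) were positive for all 5 and 50 for 4 of them, while 920 (76.9%) were positive for none. In the KPC-shV-labelled library, no cell was positive for all 5, 1 was positive for 4, and each of the 10 pairs had an expected number under 5. Zfp804b and Cacna2d1 were nonetheless positive together in 10 of its cells where 0.567 were expected.

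Inside cluster 7 the observed numbers for pairs of these 5 were 1.02 to 1.44 times those under independence, with 119 of its 201 cells labelled KPC-shZEB1 positive for Ralyl, 176 for Zfp804b and 147 for Cacna2d1. Outside it, 31 of 996 cells were positive for Zfp804b and 60 for Cacna2d1, and 16 were positive for both where 1.87 were expected. Ralyl was positive in 5 cells outside it.

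Cntn5 was apart from the first 5 members. Only 1 of the 207 Zfp804b-positive cells labelled KPC-shZEB1 was positive for Cntn5, where 16.6 were expected. Cacna2d1 gave a like result, with 1 where 16.6 were expected in that library and none where 6.17 were expected in the other. Cntn5 and Pcdh7 were found together more often than under independence in the KPC-shV-labelled library, 51 cells against 34.7, and less often in the other, 4 against 20.5. The first of these did not hold at a limit of 1 UMI, where 116 cells stood against 117.

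Rbfox1 and Edil3 went together in both libraries, and Megf10 went with both in the KPC-shV-labelled library. Rbfox1 and Edil3 were positive together in 38 cells labelled KPC-shV, where 14.9 were expected, and in 31 cells labelled KPC-shZEB1, where 8.31 were expected. Edil3 and Megf10 were positive together in 29 cells where 11.01 were expected in the KPC-shV-labelled library, and Rbfox1 and Megf10 in 24 where 9.11 were expected. In the other library both pairs with Megf10 had an expected number under 5, with 11 cells where 3.84 and 7 where 3.34 were expected. Of the 124 Ralyl-positive cells, 40 were positive for Rbfox1 where 9.63 were expected, 24 for Edil3 where 11.1 were expected and 5 for Megf10 where 4.45 were expected.

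**Figure D4:**
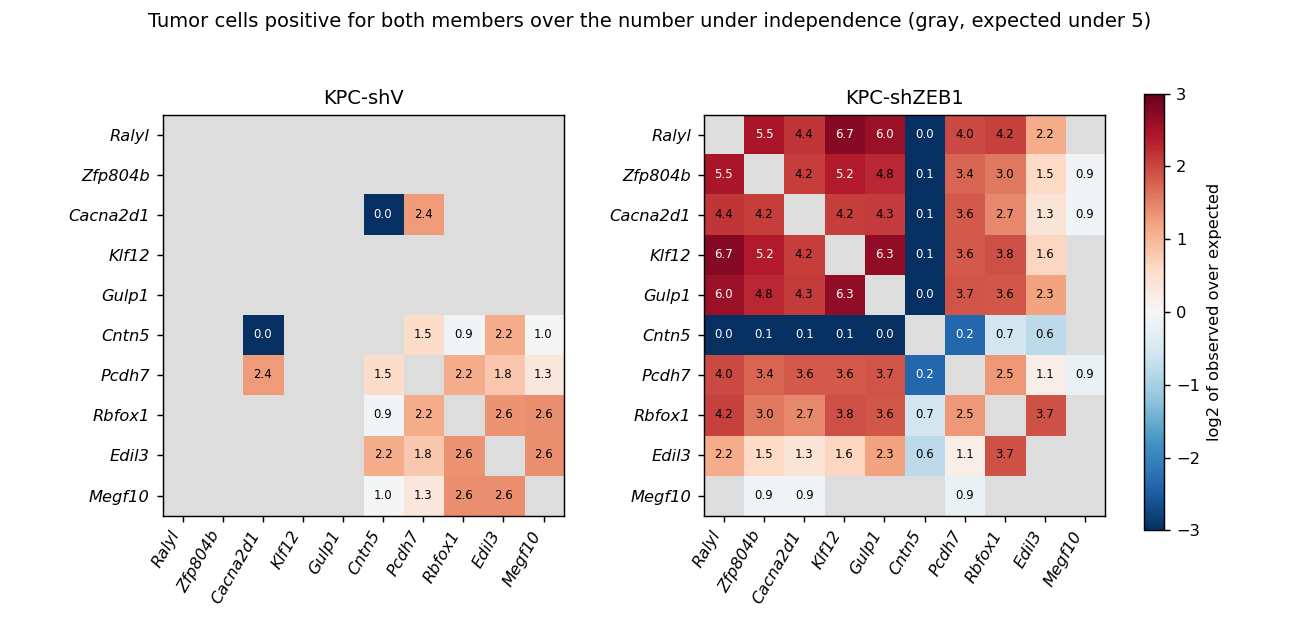
Number of tumor cells positive for both members over the number under independence, for each pair and library (numbers), colored by its log2 and gray where fewer than 5 cells were expected. The 5 members from Ralyl to Gulp1 form a block of 4.19 to 6.68 in the KPC-shZEB1-labelled library, and Cntn5 is near 0 against each of them.

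The genes most like each member over the tumor cells were ranked by the lower of the 2 libraries' Pearson correlations among 12796 genes, over 1073 and 1197 cells that share library and depth, and are a description. For Cacna2d1 they were Rbms3 (0.561 and 0.537), Gulp1 (0.536 and 0.687) and Zfp804b (0.497 and 0.755), with the KPC-shV-labelled library first. For Gulp1 they were Cacna2d1, Zfp804b and Rbms3, and for Klf12 they were Plcb1, Cacna2d1 and Gulp1. Zfp804b had Cacna2d1, Gulp1 and the potassium channel gene Kcnq5 nearest to it. The values for Ralyl were low in the KPC-shV-labelled library, where it was nearly absent, at 0.132 for Etv1, its nearest gene, and 0.117 for Zfp804b, which reached 0.799 in the other library.

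The transcription factor gene Tcf7l1 was among the 3 nearest genes of Rbfox1, Edil3 and Megf10, at 0.534 and 0.520 for Edil3. Edil3 was the nearest gene of both Rbfox1 (0.398 and 0.367) and Megf10 (0.434 and 0.416). Cntn5 had the latrophilin gene Adgrl3 nearest to it (0.363 and 0.298), and Pcdh7 had Zfpm2 (0.419 and 0.438), followed by Aebp1.

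Outside the tumor cells, some members were high in other cell classes and others were not. Cacna2d1 stood at 1045 and 897 CPM in pericyte-like cells (14 and 9 cells) and at 243 and 266 CPM in fibroblast-like cells. Pcdh7 stood at 660 and 540 CPM in fibroblast-like and 447 and 318 CPM in endothelial-like cells. Gulp1 stood at 144 and 126 CPM in fibroblast-like cells and Klf12 at 177 and 171 CPM in endothelial-like cells, each above its level in the tumor cells of both libraries. Klf12 was also present in T and NK-like cells at 74.5 and 80.4 CPM and in B-like cells at 67.4 and 81.2 CPM.

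Edil3 was present in dendritic-like cells at 56.3 and 41.0 CPM and in monocyte-macrophage-like cells at 38.6 and 43.4 CPM, against 5.14 and 7.92 CPM in granulocyte-like cells. Rbfox1 stood at 27.1 and 18.02 CPM in fibroblast-like cells against 6.68 and 8.37 CPM in granulocyte-like cells. Ralyl stayed at or below 8.29 CPM and Zfp804b at or below 24.7 CPM in every named class other than tumor-like cells, beside 8.29 and 20.6 CPM in granulocyte-like cells labelled KPC-shZEB1. Over the same classes, Megf10 stayed at or below 5.47 CPM and Cntn5 at or below 33.4 CPM, the latter from 4 UMIs in acinar-like cells. The shallow tumor-like cells that the rule left out, with a median of 3169 and 3122.5 UMIs, carried the same genes, with Cntn5 at 855 and 93.6 CPM, Ralyl at 5.39 and 78.4 CPM and Zfp804b at 20.5 and 161 CPM.

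**Figure D5:**
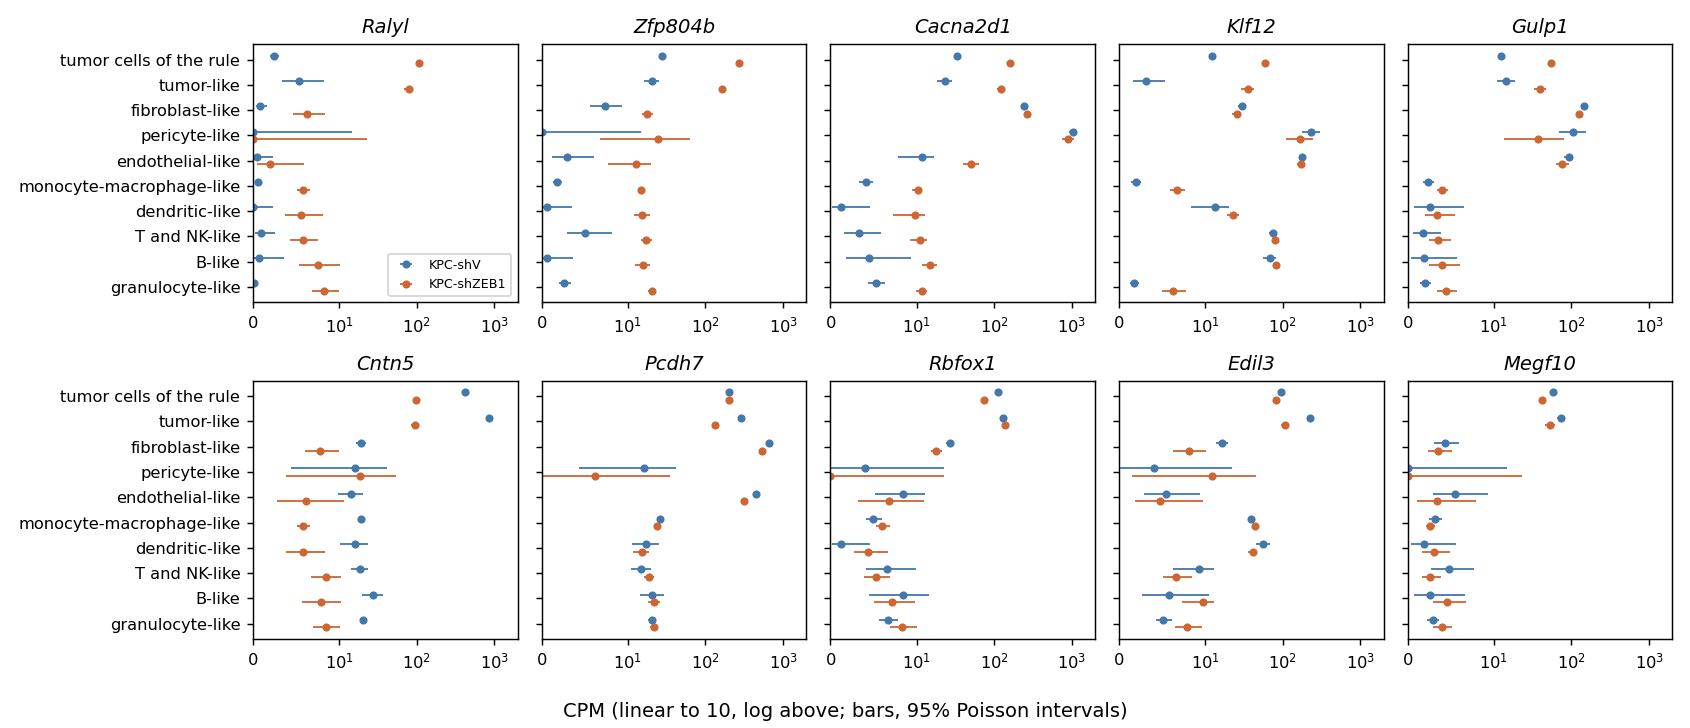
CPM of each member in the tumor cells of the rule and in 9 classes of other cells, for each library, with 95% Poisson intervals on an axis that is linear to 10 and logarithmic above. Cacna2d1 is highest in pericyte-like cells and Pcdh7 in fibroblast-like cells, while Ralyl, Zfp804b, Cntn5 and Megf10 are above their granulocyte-like level mainly in tumor cells.

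Values near the limits of the rule were as follows. Zfp804b stood at 111 CPM in the 27 tumor cells labelled KPC-shZEB1 with 10000 to under 12000 UMIs and at 36.1 CPM in the 25 cells with 8000 to under 10000. Across the keratin limit, Cntn5 stood at 491 CPM in the 107 tumor cells labelled KPC-shV with 10 to under 15 keratin UMIs and at 233 CPM in the 440 cells with 5 to under 10, of which only 66 were in tumor-like clusters.

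Few tested genes of the lists around the members passed 2-fold, where tested means a level of at least 10 CPM on the mean of both libraries. Of 14 neuron core genes, 3 were tested and none of these passed 2-fold, with a median log2 ratio of 0.10 beside 0.00 for all genes. Syn1, named after its values were seen, came nearest at 11.1 and 21.4 CPM, a ratio of 1.93. Tubb3 was at 41.7 and 44.8 CPM and Map2 at 23.4 and 21.7 CPM, whereas Elavl4 had no UMI in tumor cells of either library and Rbfox3, Dcx and Nefl, named after their values were seen, were under 1 CPM. Under the limit on the mean, and named after their values were seen, Stmn2 stood at 4.21 and 12.2 CPM and Syt1 at 0.458 and 2.61 CPM. No Schwann and glia gene reached 10 CPM, the highest being S100b at 2.49 and 2.26 CPM. None reached it either of the 10 neuroendocrine and islet genes, of which Ins2 was at 0.0573 and 9.97 CPM. The acinar markers, of another pancreatic cell type, moved with it, with 6 of 6 tested at least 2-fold higher and a summed level over 7 markers of 177 and 1479 CPM, and their part in the members' differences was not tested. In cluster 7 of the KPC-shZEB1-labelled library their sum was 312 CPM. Of the 14 neuron core genes 7 were under 1 CPM, and of the 9 Schwann and glia genes 8.

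Of 30 other long synaptic and neural adhesion genes 3 were tested and none of these passed 2-fold. Under the limit on the mean, and named after their values were seen, Cadm2 stood at 1.66 and 14.1 CPM, with 74.1 CPM in cluster 7 of the KPC-shZEB1-labelled library, and Cntnap4 at 15.4 and 4.39 CPM. The highest were Ncam1 at 157 and 181 CPM and Sox5 at 52.7 and 95.5 CPM. Among 22 paralogues of the members, 10 were tested and none passed 2-fold, with a median log2 ratio of 0.00. Pcdh9 came nearest at 198 and 384 CPM, and it stood at 1705 CPM in cluster 7 against 100.3 CPM in the other tumor cells labelled KPC-shZEB1. Klf4 was at 211 and 242 CPM.

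Of 21 engulfment genes 16 were tested and 1 passed 2-fold, the receptor kinase gene Mertk at 19.2 and 40.3 CPM, which also marks macrophages. Of 8 tested monocyte-macrophage markers, 6 were at least 2-fold higher in the tumor cells labelled KPC-shZEB1, with a summed level over 10 markers of 3589 and 4649 CPM. Most of that sum was Fn1, which went the other way at 2844 and 2260 CPM, while Apoe was at 409 and 1469 CPM and C1qa at 109 and 374 CPM. The part of these cells in the Mertk value was not tested. Itgav was at 540 and 583 CPM and Rac1 at 336 and 315 CPM. Of 19 calcium channel subunit genes 5 were tested, and 1, Cacna1d, passed 2-fold at 7.67 and 24.6 CPM. Cacnb2 was at 604 and 487 CPM and Cacna1a at 47.5 and 52.9 CPM.

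The tested genes near the members differed between the libraries by less than 2-fold, with 2 exceptions, Ecrg4 and Fbn2, named after their values were seen. Within 1 Mb of Ralyl, 5 of 11 genes were tested, with ratios between the libraries of 0.870 to 1.12, and the nearest, Lrrcc1, stood at 19.2 and 21.5 CPM. Around Zfp804b 3 of 7 were tested (0.539 to 0.995), with Gm30835 nearest, at 13.3 and 8.22 CPM, and around Klf12 6 of 14 (0.823 to 1.28), with Klf5 nearest, at 140 and 159 CPM. Within the KPC-shZEB1-labelled library, 1 tested neighbor of each of these 3 members was over 2-fold higher in cluster 7 than in the other tumor cells, Car13 near Ralyl (27.9 and 13.6 CPM), Sri near Zfp804b (1189 and 575 CPM) and Bora near Klf12 (31.2 and 15.4 CPM), all named after their values were seen. Others went the other way, Car2 near Ralyl (5.12 and 37.8 CPM), Steap4 near Zfp804b (43.2 and 76.5 CPM) and Klf5 near Klf12 (104 and 171 CPM). Ratios of cluster 7 over the other tumor cells ran from 0.135 to 2.06 near Ralyl, 0.565 to 2.07 near Zfp804b and 0.611 to 2.02 near Klf12. The share of all genes past 2-fold in this contrast was not computed. No gene near Cacna2d1 or Pcdh7 reached 10 CPM on the mean, so none was tested there. Among neighbors under that limit, Adam22 near Zfp804b stood at 10.3 and 4.95 CPM, Hgf near Cacna2d1 at 2.58 and 7.02 CPM, and Hapln1 near Edil3 at 3.95 and 0.771 CPM. The gene 4930517O19Rik, which overlaps Klf12, stood at 0.315 and 2.42 CPM. Near Cntn5 the 1 tested gene, Arhgap42, stood at 153 and 129 CPM. Near Gulp1, the nearest tested genes, Ercc5 and Col3a1, had ratios of 1.07 and 1.49, and 1 of 12, Ecrg4, a leading gene of cluster 2, had a ratio of 0.483. The nearest tested genes of the other members were Eef2kmt for Rbfox1 (1.03), Vcan for Edil3 (1.43), and March3 and Prrc1 for Megf10 (1.15 and 1.02), near which Fbn2 had a ratio of 2.01.

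Gene length moved with the share of higher genes. Among 292 tested genes of at least 300 kb, members included, 29 (9.93%) were at least 2-fold higher in the KPC-shZEB1-labelled library and 1 (0.342%) was at least 2-fold lower, with a median log2 ratio of 0.11. Among 7942 genes under 100 kb, 1.69% were at least 2-fold higher, with a median of 0.00. The part of gene length in the members' ratios was not tested.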

How the data were processed

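Single-cell RNA was measured in 1 tumor per group with 10x Genomics 3′ chemistry. The authors deposited raw UMI counts per gene and barcode, made with Cell Ranger 7.0.1 against mm10 (per the labels), and whether intronic reads were counted is not given in the sources used here. Barcodes were kept if they had 500 genes or more, between 1000 and 60000 UMIs, and a mitochondrial share no higher than 15%, as in the study's methods. Summed counts were scaled to counts per 1000000 (CPM), with exact Poisson, Clopper-Pearson and conditional ratio intervals (scipy 1.17.1). With 1 library per group no test was made, and a gene counted as past the limit at 2-fold, among genes with a mean of at least 10 CPM. Tumor cells totalled 34927658 and 37608652 UMIs, so that counting error is small beside what 1 tumor per group leaves unknown.

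Cells were clustered with scanpy 1.11.5 and leidenalg 0.10.2 (3000 variable genes without members or list genes, 30 components, 20 neighbors, resolution 1 for all cells and 0.5 for tumor cells), and clusters were named X-like from fixed markers. Doublets were scored with Scrublet and kept, with a score above 0.2 removed as an alternative. The study removed doublets with DoubletFinder and integrated batches with Harmony, neither of which was used here, so its cell names may differ. Members, lists and limits were chosen with earlier results of these data known. Named genes were the members, Zeb1, list genes past 2-fold and the 2 highest of each list, the nearest tested gene on each side of a member, and the 3 genes most like each member. The counting was tested on simulated data. Alternatives to the cell filter, doublets, rule limits, scaling, background, clusters and positivity were computed. Some genes and alleles are not reported here.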

Additional observations from a re-analysis of the deposited data

Results flagged for a closer look

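For 3 members, the CPM of tumor cells moved away from that of other cells in opposite directions in the 2 libraries, and the difference was not tested. Cacna2d1 was at 0.840 times its level in other cells in the KPC-shV-labelled library and at 3.89 times in the KPC-shZEB1-labelled library. Klf12 was at 0.696 and 2.26 times, and Gulp1 at 0.508 and 3.08 times, in the same order. After thinning to equal depth, the share of cells with a UMI kept the opposite directions for Klf12 alone. In the KPC-shV-labelled library, Cacna2d1 was then detected in 2.33% of tumor cells and 1.27% of other cells. Gulp1 was detected there in 1.12% and 0.714% and Klf12 in 0.746% and 0.930%, each with overlapping intervals. Without cluster 7, Klf12 in tumor cells labelled KPC-shZEB1 was also lower, at 18.5 CPM against 26.3 CPM in other cells. Cacna2d1 and Gulp1 stayed higher there, at 55.3 against 41.1 CPM and 19.99 against 17.8 CPM.

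Barcodes that met the tumor rule but held over 60000 UMIs were outside the cell filter and entered no comparison, 274 in the KPC-shV-labelled library and 190 in the KPC-shZEB1-labelled library. In the latter Ralyl stood at 58.4 CPM, Zfp804b at 199 CPM, Cacna2d1 at 107 CPM, Klf12 at 45.4 CPM, Gulp1 at 30.7 CPM, Rbfox1 at 63.0 CPM and Megf10 at 32.8 CPM. Each was above its value in the KPC-shV-labelled library, where the same genes stood at 5.06, 30.9, 46.3, 11.99, 21.3, 45.7 and 26.4 CPM. Rbfox1 and Megf10 were lower in the KPC-shZEB1-labelled library among the cells kept, with ratios of 0.660 and 0.721. The other 3 members were lower in the KPC-shZEB1-labelled library here too, Cntn5 with 182 and 137 CPM, Pcdh7 with 157 and 139 CPM and Edil3 with 36.5 and 25.0 CPM, the KPC-shV-labelled library first.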

How the results depend on the processing

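No paired analysis was possible because each group is 1 library. Over 11 alternatives, the ratio between the libraries ran from 5.77 to 89.1 for Ralyl, 1.56 to 22.5 for Zfp804b, 1.85 to 7.78 for Cacna2d1, 1.53 to 7.44 for Klf12, 1.67 to 7.97 for Gulp1 and 0.217 to 0.414 for Cntn5. It passed through 1 for Edil3 (0.751 to 1.25) and Pcdh7 (0.501 to 1.05). Without cluster 7, 1 member was at least 2-fold higher and 2 were at least 2-fold lower. With Ptprc at 0 UMIs, 2 members and 68 genes were at least 2-fold lower. With every gene of at least 1 UMI, 4053 genes were higher and 1933 lower of 24470, since genes of few counts enter. By the mean over cells, 3296 genes were at least 2-fold higher in tumor than in other cells labelled KPC-shV, and the cause was not tested.

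Calling cells positive at 1 UMI, the observed over expected number in the KPC-shZEB1-labelled library was 2.62 for Ralyl with Zfp804b, 2.10 for Zfp804b with Cacna2d1, 0.670 for Zfp804b with Cntn5, 1.89 for Rbfox1 with Edil3 and 0.833 for Cntn5 with Pcdh7. In the KPC-shV-labelled library it was 4.82 for Zfp804b with Cacna2d1, 1.75 for Rbfox1 with Edil3, 1.73 for Edil3 with Megf10 and 0.992, on the other side of 1, for Cntn5 with Pcdh7. At 5 UMIs, Zfp804b with Cacna2d1 was 4.93 and Zfp804b with Cntn5 0 in the KPC-shZEB1-labelled library, and Rbfox1 with Edil3 was 3.66 and 5.35. Unthinned, Zfp804b with Cacna2d1 was 3.23 and Rbfox1 with Edil3 2.49 in the KPC-shZEB1-labelled library. With tumor-like clusters only, chosen after seeing the data, Zfp804b with Cacna2d1 was 34.9 in the KPC-shV-labelled library. Of 107 values of counts and pairs, 84 stayed near the main value, 22 moved and 1 reversed. Near meant within a set factor for counts and inside the counting interval of the main value for pairs. Of the ratios, 53 of 110 between the libraries and 32 of 100 of tumor over other cells lay inside that interval, which does not measure the size of a change.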
